A study of Homo sapiens with 6 samples.

Results

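The clustered protocadherin genes are 53 protein-coding genes on chromosome 5 whose symbols begin with PCDHA, PCDHB or PCDHG, out of 19974 protein-coding genes on chromosomes 1 to 22 and X. They were chosen by symbol and chromosome in a gene table of GRCh38 patch 14, a rule that uses no measured value. The choice was made with earlier results of these data known. The alpha cluster (140786140 to 141012347) held 15 members, the beta cluster (141051374 to 141249365) 16 and the gamma cluster (141330514 to 141512975) 22. Chromatin immunoprecipitation and sequencing had been made for H3K4me3, the histone mark of active and poised promoters, and for H3K27me3, the mark laid down by Polycomb repressive complex 2. The cells were endothelial cells labelled positive for GATA2, a zinc-finger regulator needed for making blood from endothelium. They were derived from H1, an established human embryonic stem cell line, in a condition labelled Vc- or in a condition labelled Vc+. The series title gives vitamin C as the agent. The labels name no dose, no duration and no separate cultures. Each mark and condition had 1 library with an island list (an island is a stretch of enriched 200 bp windows joined by the authors), and the inputs were not analysed here. All groups share the H1 line and the GATA2 label, whereas the series' design describes cells sorted as positive or negative for a GATA2 reporter. Conditions were taken from the labels. All 4 file names carry the reverse condition, and every direction below would turn if the names were right.

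With 1 library per mark and condition there was no replicate check and no test, and each difference is one between 2 libraries. Read depth is unknown from the lists. The endothelial identity of the cells was read from 8 markers, and all 8, among them CDH5, PECAM1, KDR and TEK, carried H3K4me3 in both conditions, as did 71.1% of all protein-coding genes. H3K27me3 was also called at ERG and GATA2 in both libraries and at CDH5 in the Vc+ labelled library alone. Markers without a start in the promoter table, 3 of the 8 endothelial ones with CDH5 among them, were read at either gene end. Their calls need not lie at the start. H3K4me3 was also called in both at 2 of 4 pluripotency markers found in the gene table, but not at POU5F1 or NANOG. It was called at all 5 neural markers too, 4 of which carried H3K27me3 as well. Of 4 mesenchymal and mural markers 3 carried H3K4me3 and 0 H3K27me3 in each library, and of 4 blood markers 3 carried H3K4me3 and 2 H3K27me3. H3K4me3 thus did not set the endothelial markers apart from those of other cells.

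Clustered protocadherins are cell surface cadherins best known from neurons, where each cell expresses a different small set of them and homophilic binding between sets lets a neuron tell its own branches from those of others. In the alpha and gamma clusters each variable exon has its own promoter and is spliced to constant exons shared by the whole cluster, while each beta gene is a single-exon unit. Promoter choice depends on the DNA-binding protein CTCF and on cohesin, which bring a promoter to distal enhancers, and DNA methylation of promoters left out of that choice accompanies their silence. The C-type members (PCDHAC1, PCDHAC2, PCDHGC3, PCDHGC4 and PCDHGC5) lie at the ends of the alpha and gamma clusters next to the constant exons, and neurons express them less randomly.

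Promoter sequences were shown first, because the variable promoters are known for a short conserved element with the letters CGCT at its core. RefSeq promoters (GRCh38 patch 14, 250 bases before to 50 bases after the start) were at hand for 47 of the 53 members, all on the plus strand. CGCT read on that strand between 100 and 30 bases before the start was found in 43 of 47 (91.5%), against 27.1% of 15812 promoters of protein-coding genes. The window was set after the promoters had been seen, and a match of these letters alone need not be the conserved element. Below, 36 bases are given around the first such CGCT, which stands in capitals. In the alpha cluster the letters before it were nearly constant, and GATGTCGCT was found on either strand in 9 of 11 alpha promoters and 0.139% of all promoters. PCDHA1 and PCDHA5 had no H3K4me3 island in either library and the other 4 had one in both.
PCDHA1 (chr5:140786086-140786121): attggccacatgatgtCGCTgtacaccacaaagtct
PCDHA2 (chr5:140794781-140794816): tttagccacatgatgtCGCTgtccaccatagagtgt
PCDHA4 (chr5:140806979-140807014): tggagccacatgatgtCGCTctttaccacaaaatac
PCDHA5 (chr5:140821542-140821577): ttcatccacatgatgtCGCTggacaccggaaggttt
PCDHA6 (chr5:140827897-140827932): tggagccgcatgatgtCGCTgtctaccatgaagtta
PCDHA8 (chr5:140841130-140841165): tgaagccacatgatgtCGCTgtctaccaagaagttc

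The beta promoters shared another extension. GGTGGCGCT was found on either strand in 13 of 14 beta promoters, in 0 of 11 alpha promoters and in 0.658% of all promoters. PCDHB4 and PCDHB12 had no H3K4me3 island, PCDHB13 had one in the Vc- labelled library alone, PCDHB14 in the Vc+ labelled library alone, and PCDHB2, PCDHB3 and PCDHB15 in both.
PCDHB2 (chr5:141094544-141094579): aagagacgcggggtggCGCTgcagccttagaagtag
PCDHB3 (chr5:141100393-141100428): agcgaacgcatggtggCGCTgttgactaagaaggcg
PCDHB4 (chr5:141121723-141121758): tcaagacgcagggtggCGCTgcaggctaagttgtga
PCDHB12 (chr5:141208643-141208678): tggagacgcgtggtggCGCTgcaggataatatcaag
PCDHB13 (chr5:141213865-141213900): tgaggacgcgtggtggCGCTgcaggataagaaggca
PCDHB14 (chr5:141223263-141223298): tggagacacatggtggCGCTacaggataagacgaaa
PCDHB15 (chr5:141245314-141245349): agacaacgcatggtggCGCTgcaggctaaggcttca

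Part of the gamma promoters carried yet another form, in which GCGCCGCTG was found on either strand in 6 of 11 gamma A and 4 of 7 gamma B promoters, and in 1.73% of all. The gamma sequences printed below all hold it, while others, such as those of PCDHGA2 and PCDHGA3, do not. PCDHGA9 and PCDHGA10 were identical at 30 of the 36 bases, and H3K4me3 was called at PCDHGA10 in both libraries and at PCDHGA9 in neither. PCDHGB4 and PCDHGB5, identical at 35 of 36, were called in both libraries, PCDHGB1 in the Vc+ labelled library alone and PCDHGA1 in neither.
PCDHGA1 (chr5:141330403-141330438): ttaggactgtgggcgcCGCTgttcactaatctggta
PCDHGA9 (chr5:141402714-141402749): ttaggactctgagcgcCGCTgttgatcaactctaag
PCDHGA10 (chr5:141412931-141412966): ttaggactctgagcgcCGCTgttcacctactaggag
PCDHGB1 (chr5:141350025-141350060): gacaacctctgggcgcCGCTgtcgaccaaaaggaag
PCDHGB4 (chr5:141387617-141387652): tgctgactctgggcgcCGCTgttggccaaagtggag
PCDHGB5 (chr5:141397863-141397898): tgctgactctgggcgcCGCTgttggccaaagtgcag

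The C-type promoters resembled each other less, with a median of 16 identical bases of 36 over 6 pairs, against 24 within the alpha and 24 within the beta group. All 4 C-type promoters shown carried H3K4me3 in both libraries.
PCDHAC1 (chr5:140926220-140926255): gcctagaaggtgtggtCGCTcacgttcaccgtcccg
PCDHAC2 (chr5:140966365-140966400): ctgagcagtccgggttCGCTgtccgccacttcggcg
PCDHGC3 (chr5:141475880-141475915): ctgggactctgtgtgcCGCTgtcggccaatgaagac
PCDHGC4 (chr5:141484952-141484987): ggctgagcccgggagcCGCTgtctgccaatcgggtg
A CGCT in the window was found in 23 of 25 member promoters with H3K4me3 in both libraries and in 17 of 18 with it in neither, so these letters did not separate the groups. AGGNGGC on either strand, letters of the known CTCF motif, was found in 4 of 47 member promoters and 42.1% of all. The median GC content was 39.7% in the member promoters and 62.7% over all, and its part in this difference was not tested. A promoter without these few letters may still hold a CTCF site of another form. GGTGGCGCT of the beta promoters holds all letters of AGGNGGC but the leading A, and AGGNGGC was found in 3 of 14 beta promoters. The low count therefore does not show that CTCF sites are absent. None of these matches is a measured binding site, and the longer patterns of the 3 clusters each contain CGCT.

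H3K4me3 was called at the start of 28 of 53 members (52.8%, exact Clopper-Pearson 95% interval 38.6 to 66.7) in the Vc- labelled library and at 30 (56.6%, 42.3 to 70.2) in the Vc+ labelled library. A member counted as called where an island came within 1 kb of its start, before or after it. Over the 15812 protein-coding genes with a start in the promoter table, 71.8% were called in the first library and 72.1% in the second. The same 27 members carried the mark in both libraries (50.9%, against 71.1% of all genes) and 22 in neither. These intervals cover counting error only, and neighbouring members are not independent.

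**Figure D1:**
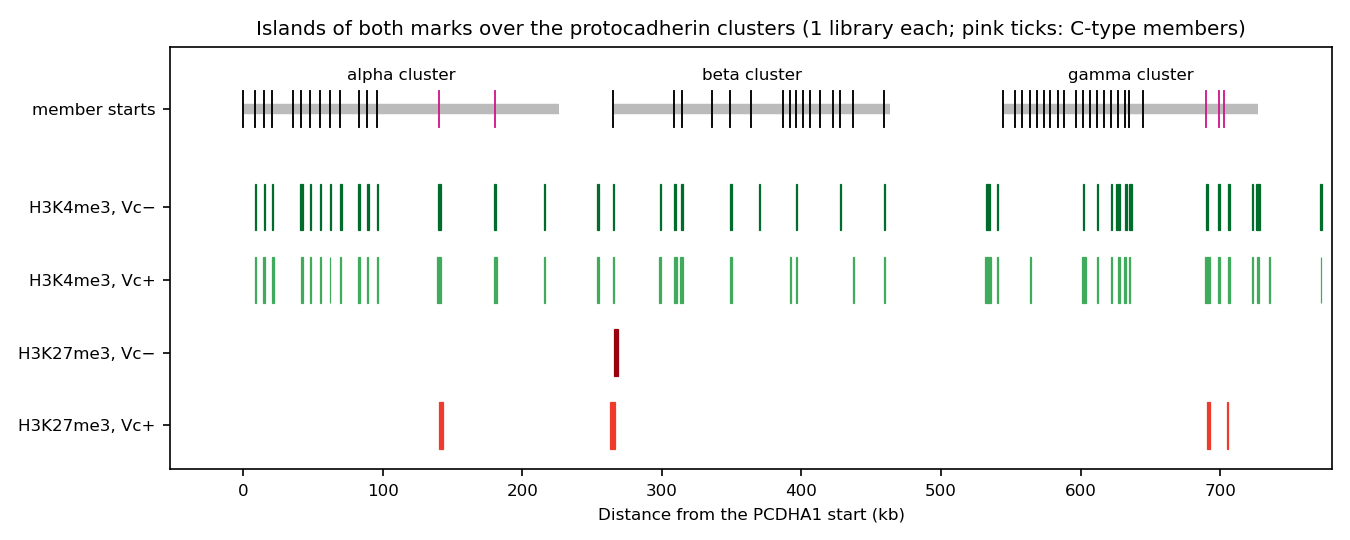
Islands of 4 libraries (1 per mark and condition) along chromosome 5, drawn to scale by distance in kb from the PCDHA1 start, with member starts as ticks above and C-type members in pink. H3K4me3 islands lie within 1 kb of 28 (Vc-) and 30 (Vc+) member starts, while the whole stretch holds 1 (Vc-) and 4 (Vc+) H3K27me3 islands.

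The alpha cluster was the most completely marked. In each library 13 of its 15 members carried H3K4me3, and they were the same 13. At PCDHA2 the island was 1 kb wide in the Vc- labelled library (140794801 to 140795800) and 0.8 kb in the Vc+ labelled library, both beginning at -51 bases from the start. Its score of 183 was the highest of any member in the first library. The score is the authors' value for how strongly an island stands out within its own list, and scores of different lists were not compared. PCDHA6 had the widest member island of the Vc- labelled library, with 2.2 kb (140826801 to 140829000) against 1.2 kb in the Vc+ labelled library. The 2 alpha members without a call were PCDHA1, the first of the cluster, and PCDHA5. The nearest H3K4me3 island lay 8.66 kb from the PCDHA1 start in both libraries, and 5.19 kb (Vc-) and 5.99 kb (Vc+) from the PCDHA5 start. Neither gene therefore lay just outside the window.

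Both alpha C-type members carried H3K4me3. At PCDHAC1 (140926299) the island was 1.8 kb wide in the Vc- labelled library and 2.4 kb in the Vc+ labelled library, where its score of 126 was the highest of any member. At PCDHAC2 (140966476), the last member of the cluster by its start, the widths were 1.6 kb and 2 kb. In both genes the wider island was that of the Vc+ labelled library.

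In the beta cluster H3K4me3 was called at 7 of 16 members (43.8%) in the Vc- labelled library and at 8 (50%) in the Vc+ labelled library. PCDHB1, PCDHB2, PCDHB3, PCDHB5, PCDHB16 and PCDHB15 were called in both. PCDHB1, the first of the cluster, had an island of 1 kb in each library, and PCDHB15, the last, islands of 1 kb and 0.8 kb. At PCDHB5 an island of 1.6 kb scored 166 in the Vc- labelled library, and one of 1.4 kb was called in the Vc+ labelled library. PCDHB4, PCDHB6, PCDHB7, PCDHB9, PCDHB10, PCDHB11 and PCDHB12 had none in either. The stretch from PCDHB9 to PCDHB12 thus held 4 neighbouring members without the mark, over 21.6 kb from first to last start. At PCDHB4 the nearest islands were 13.2 kb (Vc-) and 13.4 kb (Vc+) away. At PCDHB9 they were 4.16 kb and 3.96 kb away, at PCDHB6 5.54 kb and 13.5 kb, and at PCDHB7 9.56 kb and 5.16 kb.

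Gamma members fell into an unmarked front and a marked back. In the Vc- labelled library the first 10 members, from PCDHGA1 to PCDHGA7, had no H3K4me3 island over 52.2 kb from first to last start, and the start of PCDHGA4 lay 28 kb from the nearest one. Behind them PCDHGB4, PCDHGB5, PCDHGB6, PCDHGA10, PCDHGB7, PCDHGA11, PCDHGC3 and PCDHGC4 carried the mark in both libraries. PCDHGA8 and PCDHGA9 were interspersed among them without a call, their nearest islands lying 4.43 kb and 4.18 kb away in the Vc- labelled library. In the Vc+ labelled library the front was interrupted by an island at PCDHGB1, which left runs of 3 and 6 members without a call. PCDHGA10 had 2 islands in its window in the Vc- labelled library, and its width and edges are those of the island nearest to the start, as for every member. By type of variable exon, 2 of 12 gamma A members and 4 of 7 gamma B members were called in the Vc- labelled library, and 2 and 5 in the Vc+ labelled library. At PCDHGA1, the first member, the nearest island lay 3.51 kb (Vc-) or 3.71 kb (Vc+) away. PCDHGA12, which stands between the marked members and the C-type members, was 7.91 kb and 8.71 kb from an island.

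Of the gamma C-type members, PCDHGC3 (141475966) had an H3K4me3 island of 1.6 kb in the Vc- labelled library and 3.6 kb in the Vc+ labelled library, the latter the widest at any member. PCDHGC4 (141485030) had islands of 1.4 kb and 1.6 kb. PCDHGC5 (141489081), the last member, had none in its window. An island of 1.6 kb at 141491401 to 141493000 in both libraries began 2.32 kb past its start, inside the gene span.

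**Figure D2:**
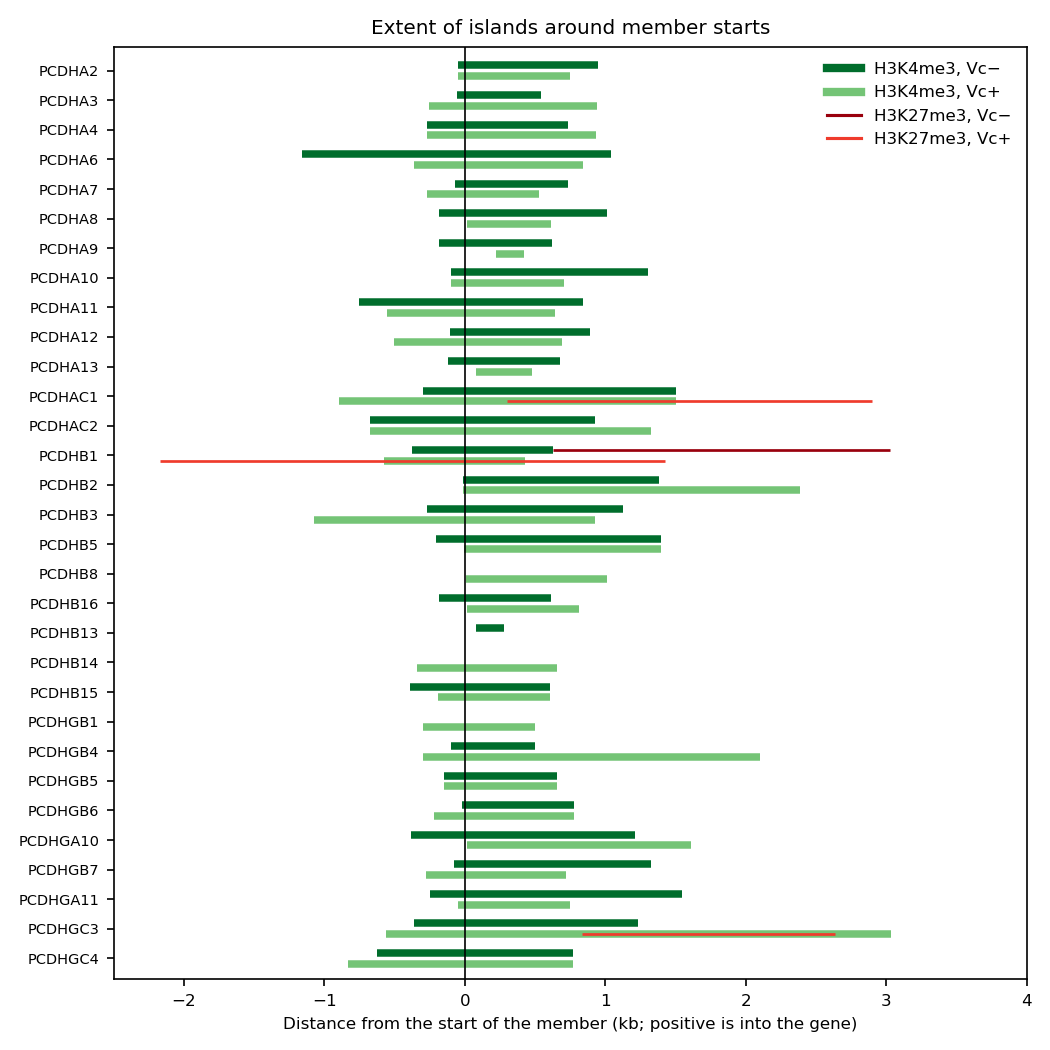
Horizontal bars give the extent of each H3K4me3 island (thick green) and H3K27me3 island (thin red) relative to the start of 31 members with H3K4me3 in at least 1 library, in kb, with 1 library per colour. Most green bars reach farther into the gene than before the start, in 27 of 28 members (Vc-) and 27 of 30 (Vc+), and H3K27me3 appears at PCDHAC1, PCDHB1 and PCDHGC3.

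H3K4me3 islands at member starts were narrow. Their widths ran from 0.2 to 2.2 kb with a median of 1.1 kb over 28 members in the Vc- labelled library, against a median of 2.2 kb (quartiles 1.6 and 3) over 11354 protein-coding genes called there. In the Vc+ labelled library the range was 0.2 to 3.6 kb and the median 1 kb over 30 members, against 2.4 kb (quartiles 1.8 and 3.2) over 11407 genes. Islands under 2 kb made up 96.4% and 80% of the members' islands, and 39% and 31.8% of those of all genes. The islands were displaced into the genes. Their median edges lay at -186 and 867 bases from the start in the Vc- labelled library, against -779 and 1279 over all genes, and at -261 and 759 in the Vc+ labelled library, against -837 and 1422. More of the island lay past the start than before it at 27 of 28 members, against 74.7% of all genes called, and at 27 of 30 in the Vc+ labelled library, against 75.8%. At PCDHA8, PCDHA9, PCDHA13, PCDHB8, PCDHB16 and PCDHGA10 the island of the Vc+ labelled library did not reach the start, and began 11 to 219 bases past it. Within their own lists the members' islands had median score percentiles of 46.1 (Vc-) and 37.4 (Vc+), against 71 and 70.5 over all genes called. Narrow islands hold fewer reads at the same density, and the part of width in these percentiles was not tested.

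**Figure D3:**
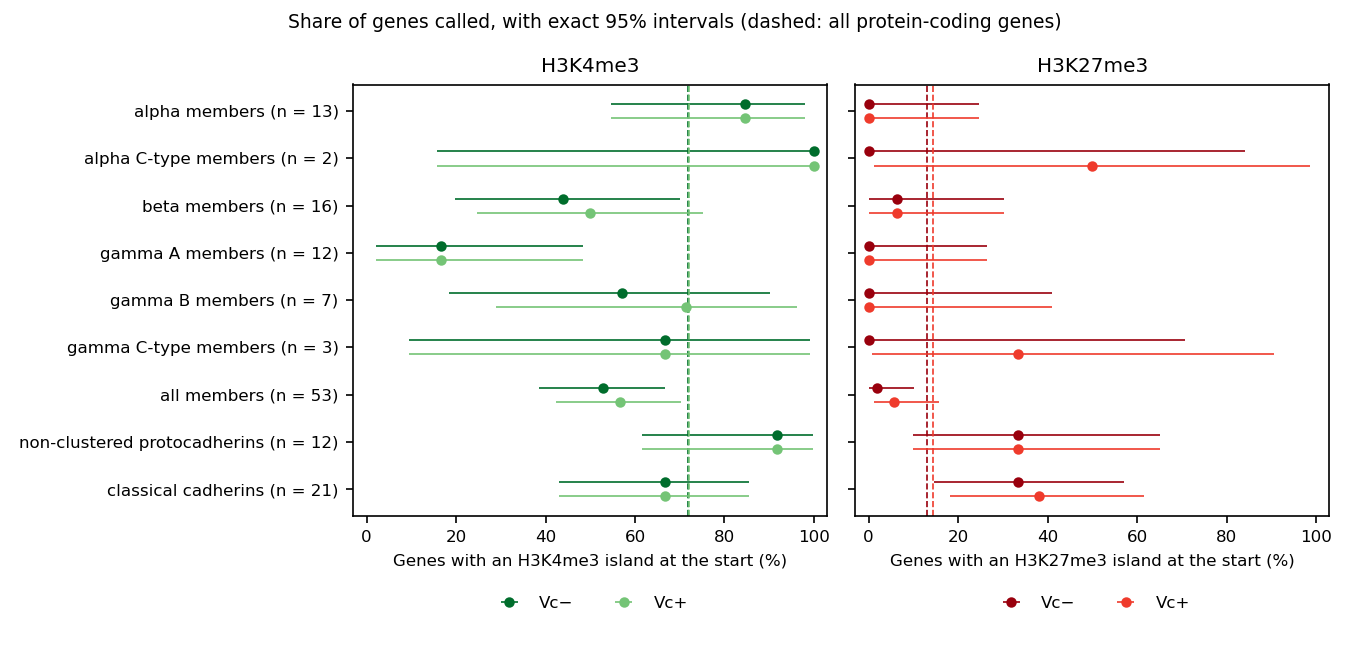
Points give the percent of genes with an island at the start in each group and library, H3K4me3 on the left and H3K27me3 on the right, with exact 95% intervals for counting error. In the comparison groups 2 of 12 non-clustered protocadherins and 10 of 21 cadherins were read at either gene end, a looser rule. Dashed lines give all protein-coding genes: 71.8% and 72.1% for H3K4me3, and 13.1% and 14.4% for H3K27me3. The gamma A members lie lowest for H3K4me3 at 2 of 12.

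The member promoters are poor in CpG dinucleotides, the letters that DNA methylation acts on. The median was 7 CpG in 300 bases (range 2 to 27, n = 47), against 22 over all 15812 promoters, and the median GC content was 39.7% against 62.7%. The 4 C-type promoters stood apart, with 15 to 27 CpG. Members with H3K4me3 in both libraries had a median of 9 CpG (n = 25), and those with it in neither a median of 5.5 (n = 18). Without the C-type members the first median was 8 (n = 21), and the ranges, 3 to 16 and 2 to 12, overlapped. The order held within classes only in part. All 4 gamma B members called in both libraries had 11 to 16 CpG, while PCDHGB2 and PCDHGB3, called in neither, had 10 and 7, and PCDHGB1, called in the Vc+ labelled library alone, had 8. In the alpha cluster PCDHA2, with only 3 CpG, carried the mark and PCDHA5, with 5, did not. In the beta cluster PCDHB4, with 12 CpG, had no island. Among promoters with 5 to 9 CpG, H3K4me3 was called at 12 of 27 members and at 33.3% of 1674 genes in the Vc- labelled library, and at 15 of 27 and 33.9% in the Vc+ labelled library. Among those with 10 to 14 CpG the members' counts were 7 of 9 and 6 of 9, against 63.2% and 64.1% of 1195 genes. With 0 to 4 CpG they were 2 of 6 in each library, against 9.09% of 2619 genes in each. With 15 CpG or more they were 5 of 5 in each, against 95% (Vc-) and 95.3% (Vc+) of 10324 genes. The part of CpG number in the lower share of members called was not tested. DNA methylation was not measured in the data used here.

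**Figure D4:**
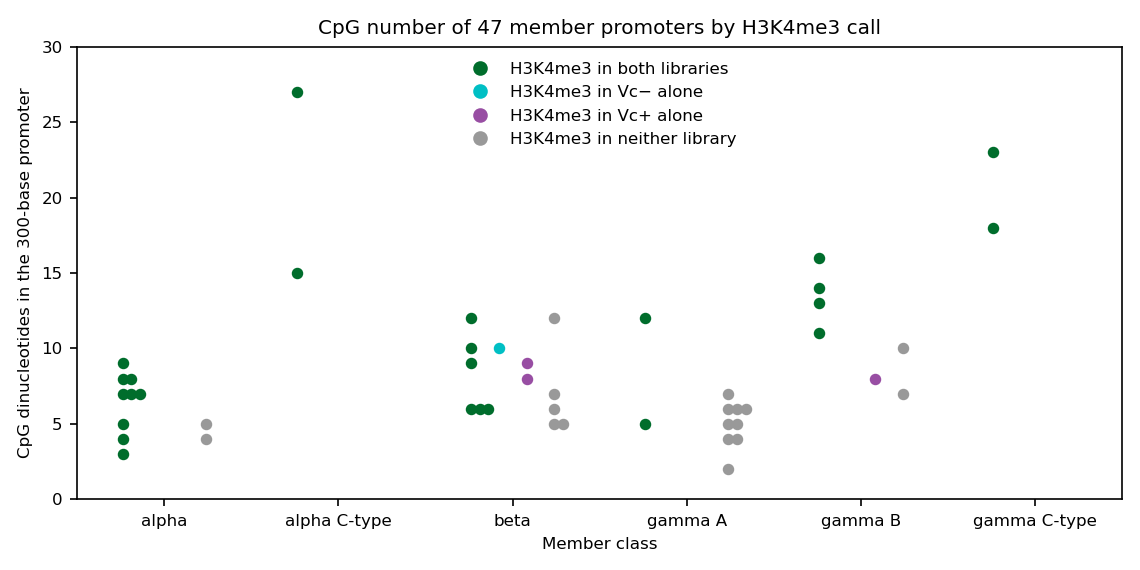
Each point is 1 of 47 member promoters, placed by class and by its number of CpG dinucleotides in 300 bases, and coloured by its H3K4me3 call. The C-type promoters hold 15 to 27 CpG, the others 2 to 16, and within the gamma B class the promoters called in both libraries (11 to 16) lie above those in neither (7 and 10), with PCDHGB1, called in Vc+ alone, at 8.

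Further H3K4me3 islands of the interval, taken with 50 kb on either side, did not lie at a protein-coding start. There were 9 of these in each library, and 8 in each overlapped one of the other condition. One lay in the annotated alpha constant region (140978949 to 141012344), at 141001601 to 141002400 in the Vc- labelled library and 141001401 to 141002600 in the Vc+ labelled library. Another, of 1.2 kb and 1.8 kb, lay between the alpha and beta clusters, 10.2 kb (Vc-) and 9.97 kb (Vc+) before the PCDHB1 start. Enhancers of the alpha cluster are known within and downstream of its constant exons, and their coordinates were not used here. An island of 0.8 kb in each library lay 9.21 kb (Vc-) and 9.41 kb (Vc+) before PCDHB2, and one of 1 kb and 0.6 kb lay before PCDHGA1. At the far end of the gamma cluster an island of 0.8 kb stood at 141508601 to 141509400 in both libraries. One of 2.6 kb (Vc-) and 2 kb (Vc+) lay across the shared end of all 22 gamma genes at 141512975. The pseudogene PCDHB17P carried an island of 1 kb (141155601 to 141156600, score 7.14) in the Vc- labelled library alone. TAF7, a subunit gene of the general transcription factor TFIID between the beta and gamma clusters, had islands of 2.8 kb and 4.4 kb, each wider than any member island of the same library.

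In all, H3K4me3 covered 6.53% of the summed length of the 3 clusters in the Vc- labelled library and 7.02% in the Vc+ labelled library. It covered 1.43% and 1.59% of the chromosomes up to their last gene. H3K27me3 covered 0.396% and 1.09% of the clusters, and 1.34% and 1.71% of the chromosomes.

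H3K27me3 was called at few members. It was called at 1 of 53 members (1.89%, exact interval 0.0478 to 10.1) in the Vc- labelled library, against 13.1% of all genes. In the Vc+ labelled library it was called at 3 (5.66%, 1.18 to 15.7), against 14.4%. The values were also set beside promoters with like numbers of CpG. With 5 to 9 CpG the mark was called at 1 of 27 members in each library, against 7.35% (Vc-) and 8.48% (Vc+) of genes. With 0 to 4 CpG it was called at 0 of 6 members, against 2.98% and 3.47%, and with 10 to 14 CpG at 0 of 9, against 14% and 16.2%. With 15 CpG or more it was called at 0 of 5 members in the Vc- labelled library, against 16.4%, and at 2 of 5 in the Vc+ labelled library, against 17.9%. No other H3K27me3 island lay in the whole interval of 827 kb in the Vc- labelled library, and 1 further island lay there in the Vc+ labelled library. Each member with H3K27me3 also carried H3K4me3, so both marks were found at 1 and 3 members, against 11.5% and 12.9% of all genes. H3K27me3 without H3K4me3 was found at 0, against 1.58% (Vc-) and 1.46% (Vc+) of all genes. Most genes with H3K27me3 likewise carried H3K4me3, 1815 of 2065 in the Vc- labelled library and 2043 of 2274 in the Vc+ labelled library. The 300 bases of the promoters of PCDHAC1, the member with the highest-scoring H3K27me3 island, and of PCDHB1, the member with this mark in both libraries, follow on the plus strand with each CGCT in capitals.
PCDHAC1 (chr5:140926049-140926348): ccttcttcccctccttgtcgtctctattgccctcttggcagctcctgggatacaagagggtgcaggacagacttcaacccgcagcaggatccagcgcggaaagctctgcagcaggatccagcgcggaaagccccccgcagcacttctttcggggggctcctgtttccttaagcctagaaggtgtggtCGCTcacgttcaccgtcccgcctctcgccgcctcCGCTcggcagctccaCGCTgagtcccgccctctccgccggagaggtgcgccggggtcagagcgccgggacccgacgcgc
PCDHB1 (chr5:141051124-141051423): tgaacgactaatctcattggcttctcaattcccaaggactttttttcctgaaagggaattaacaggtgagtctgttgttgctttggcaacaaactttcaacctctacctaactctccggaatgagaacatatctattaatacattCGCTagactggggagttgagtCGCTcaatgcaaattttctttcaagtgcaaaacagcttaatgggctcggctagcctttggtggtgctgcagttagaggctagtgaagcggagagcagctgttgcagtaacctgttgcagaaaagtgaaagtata
PCDHAC1 has 27 CpG in this window, the most among the 47 members with a promoter sequence, and PCDHB1 has 6.

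At PCDHB1 the Vc- labelled library had an H3K27me3 island of 2.4 kb (141052001 to 141054400, score 4.82), which began where the H3K4me3 island ended and did not overlap it. The Vc+ labelled library had one of 3.6 kb (141049201 to 141052800, score 17.3), which ran across the start and enclosed the H3K4me3 island of 1 kb. The antisense RNA gene PCDHB1-AS1 (141046205 to 141078031) spans this region, and the calls of the 2 genes cannot be told apart. At PCDHAC1 an H3K27me3 island of 2.6 kb (140926601 to 140929200, score 19.4) was called in the Vc+ labelled library alone, and overlapped the H3K4me3 island by 1.2 kb. At PCDHGC3 one of 1.8 kb (141476801 to 141478600, score 17) was called in that library alone, and lay wholly within the H3K4me3 island of 3.6 kb. The island outside the windows, of 0.8 kb (141491201 to 141492000, score 13.5), lay 2.12 kb past the PCDHGC5 start and overlapped the H3K4me3 island there by 0.6 kb. Thus 3 of the 4 H3K27me3 islands of the Vc+ labelled library were nearest to C-type members, while the only island of the Vc- labelled library was nearest to PCDHB1. The widest gaps between starts, 44.2 kb in the alpha and 45.5 kb in the gamma cluster, lie before PCDHAC1 and PCDHGC3. C-type starts are therefore the nearest ones over long stretches, and the part of this in the count was not tested. The islands at PCDHAC1 and PCDHGC3 began 302 and 835 bases past the start, so their calls rest on a window that reaches into the gene.

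Between the conditions the H3K27me3 call differed at 2 members, both in the Vc+ labelled library alone (3.77%, against 2.49% of all genes), and at 0 in the Vc- labelled library alone (exact upper limit 6.72%, against 1.17%). The nearest H3K27me3 island of the Vc- labelled library lay 126 kb from the PCDHAC1 start. H3K27me3 also covered more of the chromosomes in the Vc+ labelled library. With its list reduced by score to the same covered length or the same number of islands as the other, the counts were the same, 2 in the Vc+ labelled library alone and 0 in the Vc- labelled library alone. The islands at PCDHAC1 and PCDHGC3 stood at score percentiles 65.9 and 63 of their list, and the other list was left whole. Removing the lowest scores of the Vc+ labelled list alone was thus unlikely to change these counts. With a score of at least 5 or 10 required in both lists, the count in the Vc+ labelled library alone was 3. The PCDHB1 island of the Vc- labelled library, with a score of 4.82, then dropped out. At the start base itself the count in the Vc+ labelled library alone was 1. This member was PCDHB1, where the Vc+ labelled island covered the start and the Vc- labelled island began 627 bases past it. Neither PCDHAC1 nor PCDHGC3 was called at the start base.

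The H3K4me3 call differed at 4 members. PCDHB13 was called in the Vc- labelled library alone (1.89%, against 0.753% of all genes), by an island of 0.2 kb at 141214001 to 141214200 with a score of 11.1, the lowest of any member in that list. PCDHB8, PCDHB14 and PCDHGB1 were called in the Vc+ labelled library alone (5.66%, against 1.09%). Their islands were 1 kb (141177801 to 141178800), 1 kb (141223001 to 141224000) and 0.8 kb (141349801 to 141350600) wide. The direction depended on the setting. At the same covered length in both lists, 0 members were called in the Vc+ labelled library alone and 2 in the Vc- labelled library alone, with 26 and 28 in all. At the start base itself the numbers were 2 and 5, with 24 and 27 in all. With scores of 10.1, 8.29 and 4.05 the islands at PCDHB8, PCDHB14 and PCDHGB1 were the 3 lowest of all members in that list. The nearest islands of the other library lay 9.08 kb from PCDHB13, 4.41 kb from PCDHB8, 9.14 kb from PCDHB14 and 23.1 kb from PCDHGB1. The promoters of PCDHB8 and PCDHB13, called in opposite libraries, share an exact run of 55 bases. Runs of 50 bases or more were found at 4 of 47 members, and the longest, of 78 bases, joins PCDHGB4 and PCDHGB5. How reads that fit several places were handled is not given in the sources used here, so calls at such near copies are uncertain.

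Widths were compared at the 27 members with H3K4me3 in both libraries. The island was wider in the Vc+ labelled library at 11, wider in the Vc- labelled library at 11 and equal at 5, with a median difference of 0 bp (Vc+ minus Vc-). Over all 11235 genes called in both it was wider in the Vc+ labelled library at 57.3% and in the Vc- labelled library at 26.2%, with a median of 200 bp. By class, a difference between which was not tested, the directions were mixed. Of 11 alpha members other than C-type, 7 had the wider island in the Vc- labelled library and 3 in the Vc+ labelled library, with a median of -400 bp. All 4 C-type members called had the wider island in the Vc+ labelled library, with a median of 500 bp and the largest difference, 2000 bp, at PCDHGC3. The 6 beta members were wider in each library at 2 (median 0 bp), the 4 gamma B members at 2 in the Vc+ and 1 in the Vc- labelled library (median 100 bp), and of 2 gamma A members 1 was wider in the Vc- labelled library. PCDHGB4 had the next largest difference, with 0.6 kb (Vc-) and 2.4 kb (Vc+). At PCDHA9 the island of 0.8 kb in the Vc- labelled library stood against 0.2 kb in the Vc+ labelled library, and at PCDHA6 the difference was -1000 bp.

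**Figure D5:**
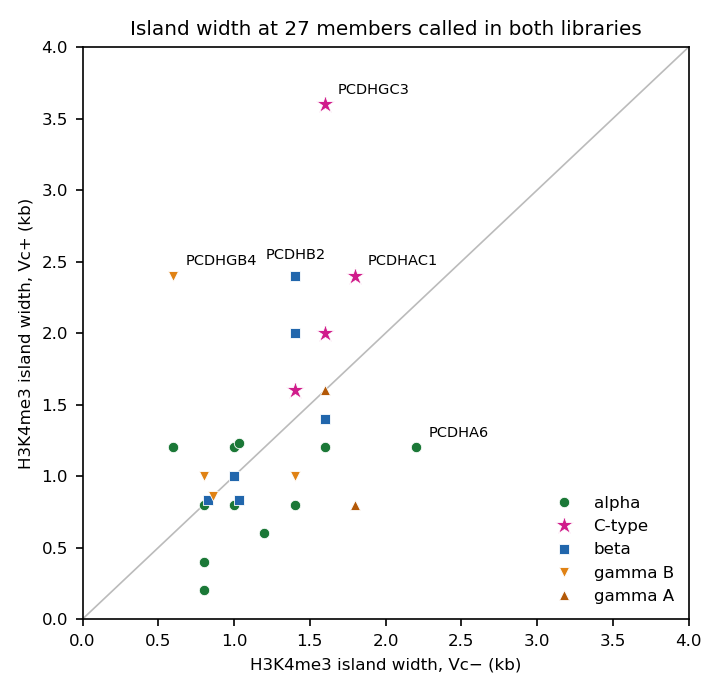
Each symbol is 1 of 27 members with an H3K4me3 island in both libraries, placed by island width in kb in the Vc- labelled library (horizontal) and Vc+ (vertical), and points that coincide are shifted slightly. The grey line marks equal widths, 11 members lie above it and 11 below it, and all 4 C-type members lie above.

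Protocadherin genes outside the clusters gave other values. Of 12 such genes, 11 carried H3K4me3 in both libraries, all except PCDH1, against 71.1% of all genes. PCDH10 and PCDH20 were read at either gene end, a looser rule than that of the members. Under that rule the members' own counts were 42 (Vc-) and 43 (Vc+) of 53. H3K27me3 was called at 4 in each library (33.3%, against 13.1% and 14.4% of all genes). These were PCDH8, PCDH11X and PCDH19 in both, PCDH20 in the Vc- labelled library alone and PCDH17 in the Vc+ labelled library alone. Where a start was known, the median width of their H3K4me3 islands was 2.8 kb in both libraries (n = 9). Of 21 cadherin genes, 10 of them read at either gene end, 14 carried H3K4me3 in both libraries (66.7%, against 71.1% of all genes). H3K27me3 was called in both at 7 of the 21 (33.3%, against 11.9%). CDH5, which encodes VE-cadherin of endothelial junctions, was called for H3K27me3 in the Vc+ labelled library alone. It was read at either gene end, so this call need not lie at its promoter, and the same holds for PCDH20. The shares of both lists beside those of the members were not tested.

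Genes that act on the clusters were read in the same way. Of 15 regulators, 14 carried H3K4me3 in both libraries (93.3%, against 71.1% of all genes). Among them were CTCF, the cohesin genes RAD21, SMC1A, SMC3, STAG1 and STAG2, the cohesin loader gene NIPBL and the release factor gene WAPL. Of the 15, 2 with RAD21 among them were read at either gene end, as was PTK2 below. DNMT3B, a DNA methyltransferase gene, was the one without H3K4me3. SMCHD1, whose product represses clustered protocadherin genes, was the one with H3K27me3, in both libraries (6.67%, against 11.9% of all genes). Among genes for processing and signalling partners, ADAM10, whose product cleaves cell surface proteins, and PTK2 and FYN, which encode kinases, carried H3K4me3 in both libraries. RET, a receptor kinase gene, carried H3K4me3 and H3K27me3 in both. No call of a regulator, or of these 4 partner genes, differed between the libraries. Differing calls were also rare over all genes. H3K27me3 was called in the Vc+ labelled library alone at 2.49% and in the Vc- labelled library alone at 1.17%, and H3K4me3 at 1.09% and 0.753%.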

How the data were processed

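Only the 4 mark libraries were used. The tools Bowtie2, SICER and deepTools and the builds hg38 and GRCh38 are listed, per the submitters' processing notes, with no role, version or setting. The authors deposited 1 island list per library, with a score taken here, from its values, as −log10 of a false discovery rate, running from just above 2 to below 310 and then 1000. Island widths are multiples of 200 bp. Depth and reads per island are not given in the sources used here. Intervals therefore rest on counts of genes. Coordinates are GRCh38, counted from 1. Starts came from the RefSeq promoter table (most upstream entry), or, for 6 members, from the lower-coordinate gene end, and for listed genes without an entry either gene end was read. A call needs 1 bp of overlap with 1 kb on either side. Members and lists were chosen with earlier results of these data known. Named were members with differing calls, C-type members, the first and last of each cluster, the widest and highest-scoring, and the first without either mark by coordinate. Other genes named as examples were chosen after their values were seen. The partner list is given by 4 examples and without its count, since it holds a gene not reported here. The gamma and CTCF letter patterns were shortened after the values of longer forms had been seen. Calls matched those of bedtools 2.31.1 at 15818 genes, and on simulated data 200 of 200 planted islands were recovered per library. Python 3.11.15, numpy 2.4.6, scipy 1.17.1 and matplotlib 3.10.9 were used.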

Additional observations from a re-analysis of the deposited data

How the results depend on the processing

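Over 154 recomputed values, 130 stayed within 1.5 times the main count, or within the exact interval of a covered length counted in 200 bp windows, and 24 moved. Some values could hardly move. The lower gene end is the start already used for every member but PCDHGB2, and equal number or length leaves the shorter list of each mark whole. A rise from 28 to 42 members also counted as staying, so the tally is no measure of robustness. H3K4me3 was called at 27 to 42 members (Vc-) and 24 to 43 (Vc+). The highest counts arose with either end of the gene span, where the island at the shared gamma end counts for every gamma gene. A window of 5 kb, added after seeing the data, gave 35 and 37 members for H3K4me3, and 1 and 4 for H3K27me3. For H3K27me3 in the library labelled Vc-, and for both marks there, the count fell from 1 to 0 with a window of 500 bp, the start base itself, 250 bases before to 50 after the start, and scores of at least 10 or 5. The covered share fell to 0 with both scores. With the start base itself or the 300-base promoter, H3K27me3 in the library labelled Vc+ was called at 1 member, both marks at 1, and the call in that library alone at 1. That member was PCDHB1 each time. When 200 bp of the window had to be covered, H3K27me3 in the library labelled Vc+ alone also stood at 1, since the PCDHGC3 island enters the window by less. Members with H3K4me3 in the library labelled Vc- alone numbered 5 at the start base, 2 with the 300-base promoter and 2 at the same covered length. Those in the library labelled Vc+ alone numbered 1 with a score of at least 10 and 0 at the same covered length, so which library had more such members turned. No paired analysis was possible because each mark and condition had 1 library.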
